A study of Mus musculus with 9 samples.

Results

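The Bcl2 family genes described here are 10 genes of the mitochondrial cell death pathway, given by symbol and found in the count table through their Ensembl identifiers. They are Bax and Bak1, which act as effectors, Bid, Bcl2l11, Bbc3, Pmaip1 and Bmf, which belong to the BH3-only proteins, and Bcl2, Bcl2l1 and Mcl1, which oppose cell death. All 10 were found among the 51912 genes of the table, and all 10 were among the 17289 genes with enough counts to be tested. The rule that names the members used no expression value, but the members were chosen with earlier results of these data known.

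Proteins of this family meet at the outer membrane of mitochondria. The effectors Bax and Bak form pores there, which release cytochrome c and set off caspases, while Bcl2, Bcl-xL (the product of Bcl2l1) and Mcl1 hold them in check. BH3-only proteins either block these guardians or activate the effectors, and in mammary epithelium Bim (Bcl2l11) and Bmf are known for the death of cells that lose contact with matrix or fill the lumen. Much of the control of this family lies in protein stability, modification and location, which RNA sequencing does not measure.

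RNA was sequenced from organoids, small epithelial fragments of mouse mammary tumours, in 9 libraries. Every mouse was of strain FVB/NJ and carried MMTV::PyMT, a viral oncogene under a mammary-active viral promoter, and (R26)pCA::mT/mG, a reporter that changes colour after recombination. The 4 WT libraries came from Cdh1+/+ organoids and the 5 E-cad-KO libraries from Cdh1fl/fl organoids. Both groups were exposed to adeno-Cre overnight and kept for 48 h in collagen I with FGF2, so that the viral exposure, the reporter and the oncogene were shared and the Cdh1 alleles differed. The labels name neither the animals nor their ages, and p-values therefore measure the spread between these samples, which may be technical. Whole gels were extracted, so that cells without recombination and cells other than epithelium could add RNA. In such bulk samples, fewer cells of a type and less RNA per cell cannot be told apart.

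Libraries held 44890302 to 64763645 counts, and every member had at least 306 counts in every library. Levels are given as CPM, depth-scaled counts after TMM scaling, of which 1 stood for 44.2 to 64.3 counts depending on the library, and with the SD over the 4 WT or 5 E-cad-KO libraries. Cdh1, which encodes E-cadherin and was the targeted gene, averaged 189 ± 44.1 CPM (SD, n = 4) for WT libraries and 91.3 ± 15.4 CPM (SD, n = 5) for E-cad-KO libraries, fell by 1.05 on the log2 scale (SE 0.16, edgeR adjusted p = 0.0275), and did not overlap between the groups. The fall held in all 18 alternatives, but its call was lost in 7 of them: without WT 3 (edgeR adjusted p = 0.0904), without E-cad-KO 1, 3, 4 or 5 (0.0664, 0.0764, 0.0657 and 0.0644), with the replicate block (0.171) and without both WT 1 and WT 4 (0.0545). The luminal markers, from Epcam to Krt8, were present in all libraries, with a summed level of 3467 to 4767 CPM in WT libraries and 4227 to 5387 CPM in E-cad-KO libraries. Of these 8 markers edgeR called 0, while 5 were higher (Krt8, Krt18, Cldn3, Cldn4 and Cldn7) and 1 lower (Elf5) at an unadjusted p under 0.05. The groups did not overlap for Krt8 and Cldn7, against 8.11% of all tested genes. DESeq2 called 5 of the 8 markers and limma-voom 3, against 8.46% and 2.94% of the genes to which each gave an adjusted p. The log2 difference was positive for 6 of the 8, with a median of 0.34. It was negative for Elf5 and for Krt19 (-0.57, edgeR adjusted p = 0.351). Library WT 4 stood apart. All 9 macrophage markers other than Cd14 were highest there. They summed to 72.6 CPM, against 6.66 to 35.3 CPM in the other 8 libraries. The adipocyte markers, 5 of 5, were highest there too, with 104 CPM against 10.7 to 31.9 CPM. Of these 5, 3 were under 1 CPM in every library, and most of the WT 4 sum was Lpl (63.0 CPM) and Fabp4 (38.3 CPM). With Cd14, the whole list of 10 macrophage markers summed to between 239 and 400 CPM over the WT libraries and between 292 and 374 CPM over the E-cad-KO libraries. That sum was lowest in WT 4, and so was Cd14, at 167 CPM against 257 to 392 CPM in the other 8 libraries. Myoepithelial markers summed to between 2331 and 11359 CPM over the WT libraries and between 3386 and 7683 CPM over the E-cad-KO libraries, with WT 4 lowest, most of it Krt14 and Krt5. Without these the sum of the other 4 markers was highest in WT 4, at 174 CPM against 47.0 to 163 CPM in the other 8 libraries, and Acta2, Myh11 and Cnn1 were each highest there. Fibroblast markers summed to between 66.3 and 363 CPM over the WT libraries and between 135 and 227 CPM over the E-cad-KO libraries. Their sum was highest in WT 4. Neutrophil markers summed to between 35.7 and 191 CPM over the WT libraries and between 29.7 and 51.5 CPM over the E-cad-KO libraries, most of it S100a8, without which the sum was at most 6.56 CPM. Endothelial markers summed to between 5.20 and 11.5 CPM over the WT libraries and between 3.60 and 6.46 CPM over the E-cad-KO libraries. This sum too was highest in WT 4. T cell markers (Cd3e at 0 in every library) and B cell markers each summed to under 1 CPM in every library.

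Promoter windows from RefSeq (GRCm38.p6), the 250 bases before a transcript start, were examined for 9 of the 10 members. Pmaip1 was left out, so that nothing is said here of its promoter. The windows of the 3 anti-apoptotic genes and of Bbc3 are shown because these were the 4 members with the largest positive differences between E-cad-KO and WT. RefSeq gives 3 windows each for Bcl2l1 and Bbc3; for these the 1 farthest upstream is printed. Each is written 5′ to 3′ on the strand of its gene. None of the 4 windows contains a base of an annotated GENCODE M21 exon, and the printed Bbc3 window lies inside the annotated span of that gene. The first bases after the RefSeq start were found in a GENCODE M21 transcript for Bcl2l1, but not for Bcl2, Mcl1 or Bbc3. The starts of these last rest on RefSeq alone. Capitals mark the GC box, GGGCGG or its reverse complement, the element bound by Sp1-type factors.

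Mcl1, chr3:95658471-95658720, plus strand: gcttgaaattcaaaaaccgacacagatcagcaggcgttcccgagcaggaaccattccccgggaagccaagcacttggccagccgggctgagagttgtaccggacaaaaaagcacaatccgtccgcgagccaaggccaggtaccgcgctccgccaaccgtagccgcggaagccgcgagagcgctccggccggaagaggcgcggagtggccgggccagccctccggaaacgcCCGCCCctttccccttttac
Bcl2l1, chr2:152831729-152831978, minus strand: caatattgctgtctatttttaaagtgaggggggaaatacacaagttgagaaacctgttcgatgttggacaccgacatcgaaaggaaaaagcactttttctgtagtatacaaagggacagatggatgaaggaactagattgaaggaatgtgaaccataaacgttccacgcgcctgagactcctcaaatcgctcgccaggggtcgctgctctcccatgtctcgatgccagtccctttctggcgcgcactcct
Bcl2, chr1:106714291-106714540, minus strand: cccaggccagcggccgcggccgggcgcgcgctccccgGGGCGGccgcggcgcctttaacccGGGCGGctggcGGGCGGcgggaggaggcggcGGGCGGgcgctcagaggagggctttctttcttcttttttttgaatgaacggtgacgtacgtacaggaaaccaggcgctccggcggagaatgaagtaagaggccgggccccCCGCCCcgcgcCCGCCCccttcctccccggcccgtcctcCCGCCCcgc
Bbc3, chr7:16309333-16309582, plus strand: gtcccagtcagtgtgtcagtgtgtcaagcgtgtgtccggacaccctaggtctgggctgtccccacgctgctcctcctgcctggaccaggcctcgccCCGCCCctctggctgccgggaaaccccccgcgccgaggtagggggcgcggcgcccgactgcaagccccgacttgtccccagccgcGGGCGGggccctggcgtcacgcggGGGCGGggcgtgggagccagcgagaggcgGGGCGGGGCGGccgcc

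The Bcl2 window held 7 GC boxes and the printed Bbc3 window 5, of which the last 2 share a base. The other 2 Bbc3 windows, downstream and also free of exon bases, held 1 and 7 GC boxes, and the latter also a CCAAT box and an E-box. The Mcl1 window held 1, beginning 20 bases before the RefSeq start. A GC box occurred in 32.7% of all 32851 RefSeq windows of this length. None of the 3 windows of Bcl2l1 contained any of the 6 motifs searched on both strands, and the printed windows of Bcl2, Mcl1 and Bbc3 contained none of the other 5. These were CCAAT (in 33.8% of all windows), the TATA box TATAAA (12.4%), the STAT site TTCNNNGAA (7.02%), the AP-1 site TGANTCA (6.75%) and the E-box CACGTG (6.02%). A match is a description of letters and not evidence of binding, and no match says nothing of the factor.

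None of the 10 members was called at an adjusted p under 0.05 by edgeR, and in each of the 10 the values of the 2 groups overlapped. The 3 anti-apoptotic genes were all higher on average in E-cad-KO, by 1.16-fold for Mcl1, 1.18-fold for Bcl2 and 1.25-fold for Bcl2l1. The effector Bak1 averaged 1.10-fold and the BH3-only gene Bbc3 1.24-fold of WT. The other 5 members lay between 0.892-fold (Bmf) and 1.04-fold (Bid). The luminal markers had a positive median too (0.34 on the log2 scale), as had the 1 tested T cell marker (0.04). The medians of the other tested marker lists were negative. They were -0.35 for myoepithelium, -0.52 for macrophages, -0.92 for neutrophils, -0.94 for endothelium, -0.13 for fibroblasts and -1.35 for adipocytes. The part of these cell types in the differences of the members was not tested. Among all 17289 tested genes edgeR called 244, a share of 1.41%, so that a count of 0 among 10 is near the background.

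At an unadjusted p under 0.05, 4 of 10 members passed, namely Bak1, Bbc3, Bcl2l1 and Mcl1, all with higher levels in E-cad-KO. Over all tested genes this mark was reached by 16.7% in either direction and by 8.74% in the higher direction. The fold change was positive for 7 members and negative for 3, with a median log2 difference of 0.10. For all tested genes, 48.0% were positive and the median was -0.01. Non-overlapping groups were found for 0 of 10 members and for 8.11% of all tested genes. DESeq2 called 2 members (Mcl1 and Bbc3) where it called 8.46% of the 14256 genes to which it gave an adjusted p. The limma-voom fit with quality weights called 1 member (Bcl2l1) and 2.94% of all genes. Without WT 4 edgeR called 1 member, Bcl2l1, and 3 reached an unadjusted p under 0.05, Bak1 no longer among them. In that fit 1.91% of all genes were called, and 9.44% reached the unadjusted mark in the higher direction. Without both WT 1 and WT 4, left out together after the data were seen, edgeR called 0 members. In that fit 4 reached the unadjusted mark, with Pmaip1 in the place of Bak1. WT 1 and WT 4 were the 2 highest libraries for Pmaip1, so that leaving both out makes its difference positive. Of all genes 0.443% were called in that fit, and 7.67% reached the unadjusted mark in the higher direction.

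**Figure D1:**
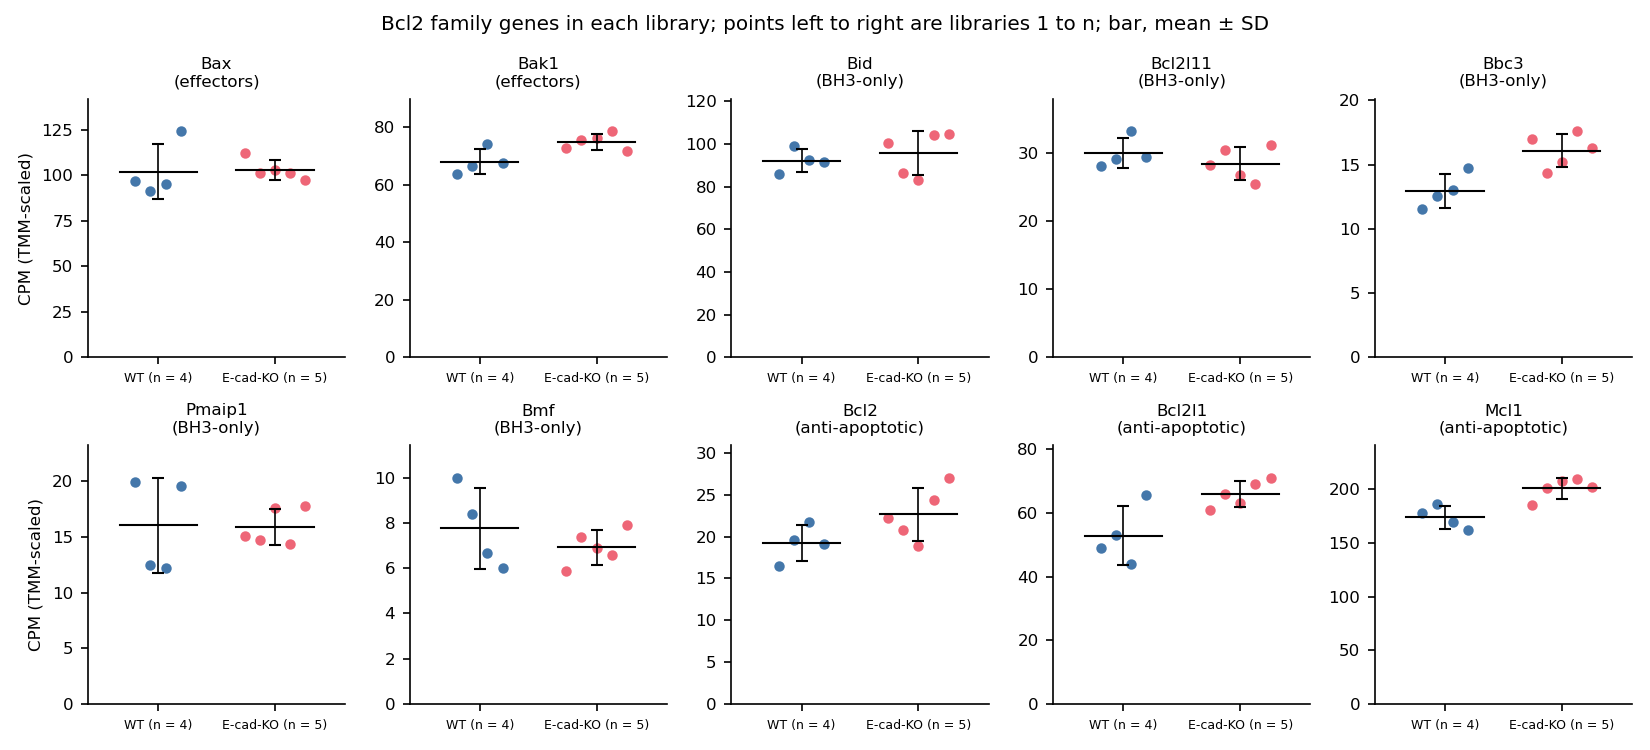
CPM (vertical axes, from 0) of the 10 Bcl2 family genes in 4 WT (blue) and 5 E-cad-KO (red) libraries, 1 point per library in the order of library number, with the mean as a bar and the SD as whiskers. The groups overlap in all 10 panels, and WT 4 is the highest WT point for Bax, Bbc3 and Bcl2l1.

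Bax (ENSMUSG00000003873, chromosome 7, 45461697 to 45466898, GRCm38, GENCODE M21) encodes the effector that moves from the cytosol to mitochondria when a cell is committed to die. Its level was 97.0, 91.2, 95.02 and 124 CPM in WT 1 to 4, and 112, 101, 103, 101 and 97.3 CPM in E-cad-KO 1 to 5. WT 4 alone was high, and the other 8 libraries lay between 91.2 and 112 CPM. The mean was 102 ± 15.1 CPM (SD, n = 4) for WT libraries and 103 ± 5.62 CPM (SD, n = 5) for E-cad-KO libraries, a log2 difference of 0.017 (SE 0.09, 95% interval -0.18 to 0.22, edgeR adjusted p = 0.954). Without WT 4 the difference was 0.13 (edgeR adjusted p = 0.283). A predicted gene on the same strand, Gm45808, shares 192 exon bases with Bax, and reads there could be split between them. The intervals of log2 differences here and below are not adjusted for the number of genes.

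Bak1 (ENSMUSG00000057789, chromosome 17, 27019810 to 27029009) encodes Bak, the effector that resides in the mitochondrial membrane. Its level was 63.9, 66.8, 74.2 and 67.6 CPM in WT 1 to 4, and 72.8, 75.5, 76.2, 78.7 and 71.8 CPM in E-cad-KO 1 to 5. WT 3 reached into the E-cad-KO range, and the other 3 WT libraries lay below every E-cad-KO library. The log2 difference was 0.14 (SE 0.06, 95% interval 0.01 to 0.26, unadjusted p = 0.0318, edgeR adjusted p = 0.240). Bak1 shares 614 exon bases with Ggnbp1 on the other strand, and whether the counting used the strand is not given in the sources used here.

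Bid (ENSMUSG00000004446, chromosome 6, 120891930 to 120916853) encodes the BH3-only protein that caspase 8 cleaves, which links death receptors to mitochondria. Its level was 85.8, 99.2, 92.6 and 91.5 CPM in WT 1 to 4, and 100, 86.3, 83.1, 104 and 105 CPM in E-cad-KO 1 to 5. The 4 WT values lay within the spread of the E-cad-KO values, which fell into 3 libraries at 100 CPM or more and 2 at 86.3 CPM or less. The log2 difference was 0.054 (SE 0.08, 95% interval -0.13 to 0.24, edgeR adjusted p = 0.807). The overlap of 628 exon bases on the other strand is with Bcl2l13, itself a Bcl2 family gene.

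Bcl2l11 (ENSMUSG00000027381, chromosome 2, 128126038 to 128162547) encodes Bim, which binds all the anti-apoptotic proteins. Its level was 28.0, 29.1, 33.2 and 29.5 CPM in WT 1 to 4, and 28.2, 30.5, 26.7, 25.4 and 31.1 CPM in E-cad-KO 1 to 5. The ranges overlapped for the most part, with WT 3 highest and E-cad-KO 4 lowest. The log2 difference was -0.077 (SE 0.08, 95% interval -0.25 to 0.10, edgeR adjusted p = 0.685).

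Bbc3 (ENSMUSG00000002083, chromosome 7, 16308393 to 16318205) encodes Puma, a BH3-only protein whose gene is a target of p53. Its level was 11.6, 12.6, 13.01 and 14.7 CPM in WT 1 to 4, and 17.0, 14.4, 15.2, 17.6 and 16.3 CPM in E-cad-KO 1 to 5. Only E-cad-KO 2 and WT 4 crossed, and the other 4 E-cad-KO libraries lay above every WT library. The mean was 12.97 ± 1.32 CPM (SD, n = 4) for WT libraries and 16.1 ± 1.31 CPM (SD, n = 5) for E-cad-KO libraries, a log2 difference of 0.31 (SE 0.09, 95% interval 0.10 to 0.52, unadjusted p = 0.00704, edgeR adjusted p = 0.124). DESeq2 gave an adjusted p of 0.0314, and without WT 4 the edgeR adjusted p was 0.0648.

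Pmaip1 (ENSMUSG00000024521, chromosome 18, 66458533 to 66465565) encodes Noxa, a BH3-only protein that binds Mcl1. Its level was 19.9, 12.5, 12.2 and 19.6 CPM in WT 1 to 4, and 15.1, 14.7, 17.6, 14.4 and 17.8 CPM in E-cad-KO 1 to 5. WT 1 and WT 4 were above every E-cad-KO library and WT 2 and WT 3 below every one, so that the whole E-cad-KO range lay inside a gap between the WT libraries. The SD was 4.26 CPM around 16.1 CPM over WT and 1.64 CPM around 15.9 CPM in E-cad-KO, and the log2 difference was -0.013 (SE 0.16, 95% interval -0.38 to 0.35, edgeR adjusted p = 0.981). Without WT 1 and WT 4, left out together after the data were seen, the log2 difference was 0.37 (edgeR adjusted p = 0.196), of the opposite sign.

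Bmf (ENSMUSG00000040093, chromosome 2, 118528757 to 118549687) encodes a BH3-only protein that is held at the actomyosin cytoskeleton in attached cells. Its level was 10.003, 8.40, 6.66 and 6.02 CPM in WT 1 to 4, and 5.87, 7.40, 6.92, 6.58 and 7.90 CPM in E-cad-KO 1 to 5. WT 1 and WT 2 were the highest libraries, and WT 3 and WT 4 lay within the E-cad-KO range. The log2 difference was -0.16 (SE 0.16, 95% interval -0.52 to 0.19, edgeR adjusted p = 0.665).

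Bcl2 (ENSMUSG00000057329, chromosome 1, 106538178 to 106714274) is the founding anti-apoptotic member. Its level was 16.5, 19.5, 21.7 and 19.2 CPM in WT 1 to 4, and 22.2, 20.8, 18.9, 24.4 and 27.0 CPM in E-cad-KO 1 to 5. The 3 highest libraries were E-cad-KO 5, 4 and 1, the lowest was WT 1, and E-cad-KO 3 lay below 3 of the 4 WT libraries. The log2 difference was 0.24 (SE 0.11, 95% interval -0.02 to 0.49, unadjusted p = 0.0631, edgeR adjusted p = 0.330). Without WT 1 and WT 4 together it was 0.14 (edgeR adjusted p = 0.702). The long non-coding gene D630008O14Rik on the other strand shares 558 exon bases with Bcl2.

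Bcl2l1 (ENSMUSG00000007659, chromosome 2, 152780668 to 152831728) encodes Bcl-xL and, by splicing, the pro-apoptotic Bcl-xS, which counts per gene do not separate. Its level was 49.2, 53.04, 44.0 and 65.6 CPM in WT 1 to 4, and 61.0, 65.9, 63.1, 69.0 and 71.1 CPM in E-cad-KO 1 to 5. WT 4 lay inside the E-cad-KO range, and WT 1, 2 and 3 lay below every E-cad-KO library. The mean was 52.9 ± 9.22 CPM (SD, n = 4) for WT libraries and 66.0 ± 4.13 CPM (SD, n = 5) for E-cad-KO libraries, a log2 difference of 0.32 (SE 0.10, 95% interval 0.09 to 0.55, unadjusted p = 0.0118, edgeR adjusted p = 0.158).

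Whether Bcl2l1 passed the test depended on the libraries kept and on the method. WT 4 held its highest WT value, so that leaving out WT 4 widens the difference. In WT 4 the sums of adipocyte, fibroblast and endothelial markers, and of macrophage markers other than Cd14, were highest. The luminal and myoepithelial sums were lowest there. Without WT 4 the log2 difference was 0.44 and passed the test (edgeR adjusted p = 0.0288). With limma-voom and quality weights, which lower the weight of libraries that stand apart, the adjusted p was 0.037. Without both WT 1 and WT 4 the difference was 0.45 (edgeR adjusted p = 0.0684). The part of the other cell types in the Bcl2l1 level of WT 4 was not tested.

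Mcl1 (ENSMUSG00000038612, chromosome 3, 95658788 to 95663176) encodes a short-lived anti-apoptotic protein that the mammary gland needs for the survival of its epithelium. Its level was 178, 187, 170 and 162 CPM in WT 1 to 4, and 185, 201, 207, 210 and 202 CPM in E-cad-KO 1 to 5. The groups crossed at WT 2 and E-cad-KO 1, and the other 4 E-cad-KO libraries lay above every WT library. The mean was 174 ± 10.6 CPM (SD, n = 4) for WT libraries and 201 ± 9.74 CPM (SD, n = 5) for E-cad-KO libraries, a log2 difference of 0.21 (SE 0.06, 95% interval 0.08 to 0.34). It had the smallest p of the 10 genes (unadjusted p = 0.00497, edgeR adjusted p = 0.106). DESeq2 gave an adjusted p of 0.0155. Leaving out WT 4, which was the lowest library here, gave 0.18 (edgeR adjusted p = 0.149).

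**Figure D2:**
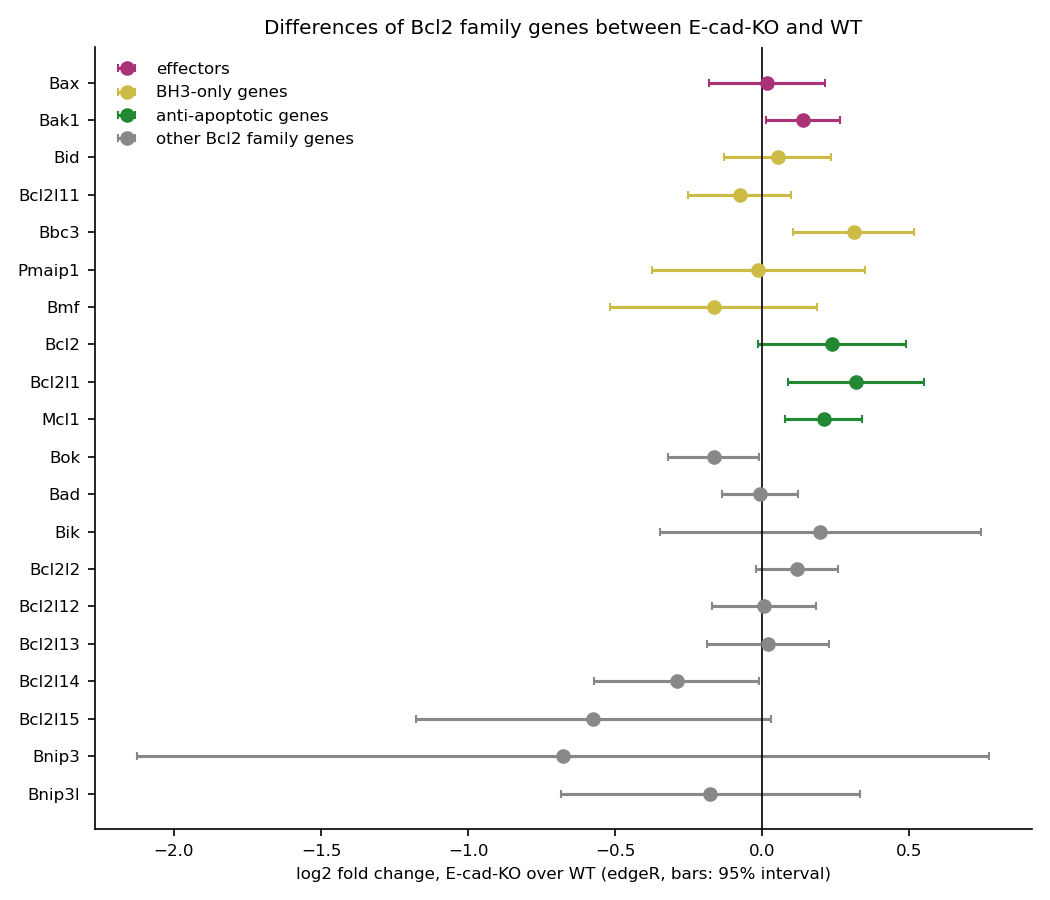
The log2 fold change of E-cad-KO over WT (horizontal axis) with its unadjusted 95% interval from edgeR for the 10 members, coloured by role, and in grey for 10 other Bcl2 family genes, the 12 tested without Bcl2a1a and Bcl2a1b, which were under 1 CPM. The 3 anti-apoptotic points lie between 0.21 and 0.32, the intervals of Bak1, Bbc3, Bcl2l1 and Mcl1 lie above 0, and that of Bnip3 is the widest of those drawn.

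Levels of different genes can be compared only per length, here as CPM per kilobase of a gene's merged exons, averaged over the 9 libraries. The order was Bax at 65.1, Mcl1 at 55.3, Bak1 at 29.9, Bid at 26.5, Bcl2l1 at 13.1, Bbc3 at 6.92, Pmaip1 at 5.85, Bcl2l11 at 3.62, Bcl2 at 2.31 and Bmf at 1.39 CPM per kilobase. Neighbours whose libraries overlapped were Bax and Mcl1, Bak1 and Bid, Bbc3 and Pmaip1, and Bcl2 and Bmf. Between all other neighbours the ranges over the 9 libraries did not overlap. Of the 10 members, Bax and Bak1 were thus among the most abundant transcripts and the BH3-only genes other than Bid among the scarcer ones. Other genes of the family were not ranked. Among the anti-apoptotic genes the order was Mcl1, Bcl2l1, Bcl2.

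With the longest annotated transcript in place of merged exons, Bid (39.0 CPM per kilobase) came before Bak1 (30.1), and the other 8 genes kept their places. Bax then stood at 93.2 and Bmf at 1.57 CPM per kilobase. Which transcripts were expressed was not measured.

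**Figure D3:**
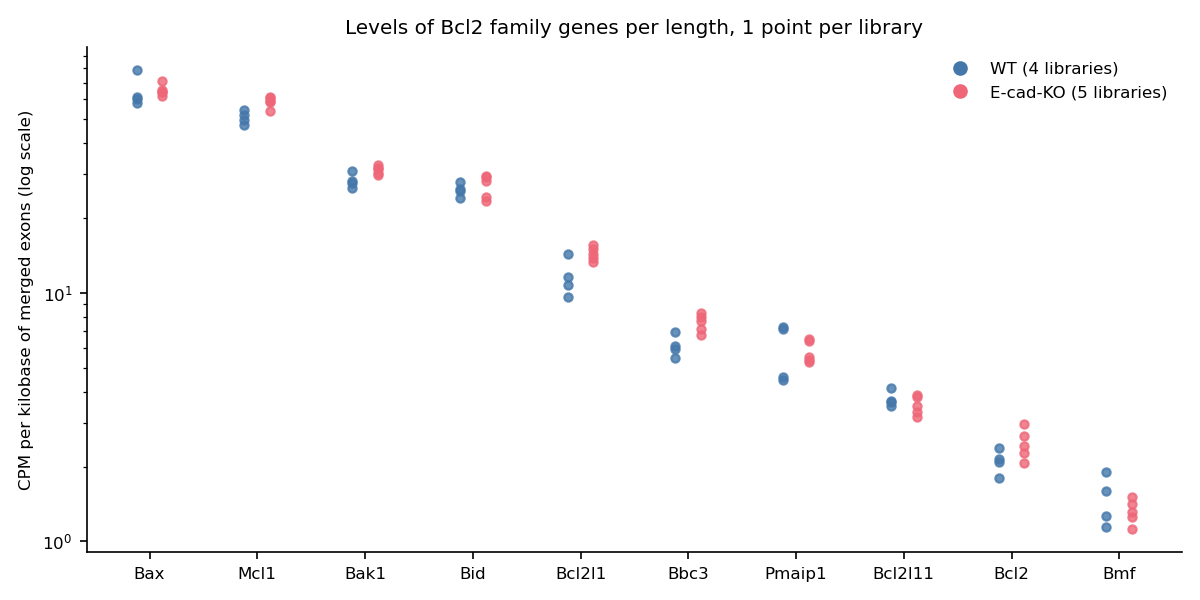
Level of each Bcl2 family gene in CPM per kilobase of merged exons (vertical axis, log scale), 1 point per library, WT in blue and E-cad-KO in red, ordered by the mean of the 9 libraries. Levels run from a mean of 65.1 for Bax to 1.39 for Bmf.

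Because the balance between pro- and anti-apoptotic members is how this family is usually read, CPM ratios were formed within each library for the 21 pairs of 1 pro-apoptotic and 1 anti-apoptotic member. The ratios were formed after the members' values were known, and they are given as a description without a test. The mean ratio was lower in E-cad-KO for 19 pairs and higher for 2, Bbc3 over Bcl2 and Bbc3 over Mcl1. Of all other tested genes, the mean ratio was lower in E-cad-KO for 85.4% over Mcl1, 86.6% over Bcl2 and 92.3% over Bcl2l1, so that 19 of 21 is near the background of these denominators. The 21 pairs share 10 genes and are not independent.

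Bcl2l11 over Mcl1 was 0.158, 0.156, 0.196 and 0.182 in WT 1 to 4, and 0.153, 0.152, 0.129, 0.121 and 0.154 in E-cad-KO 1 to 5. Bcl2l11 over Bcl2 was 1.70, 1.49, 1.53 and 1.54 in WT 1 to 4, and 1.27, 1.47, 1.42, 1.04 and 1.15 in E-cad-KO 1 to 5. In these 2 of 21 pairs every E-cad-KO library lay below every WT library, for both by a narrow margin. The same held for 17.9% of all other tested genes over Mcl1 and for 7.06% over Bcl2, so that such ratios to Mcl1 were common.

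Bax over Bcl2l1 was 1.97, 1.72, 2.16 and 1.89 in WT 1 to 4, and 1.84, 1.54, 1.63, 1.47 and 1.37 in E-cad-KO 1 to 5, so that only E-cad-KO 1 lay in the WT range. Bax over Bcl2 was 5.88, 4.67, 4.37 and 6.48 in WT 1 to 4, and 5.06, 4.88, 5.45, 4.15 and 3.60 in E-cad-KO 1 to 5. For this pair 3 of 5 E-cad-KO libraries lay in the WT range.

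**Figure D4:**
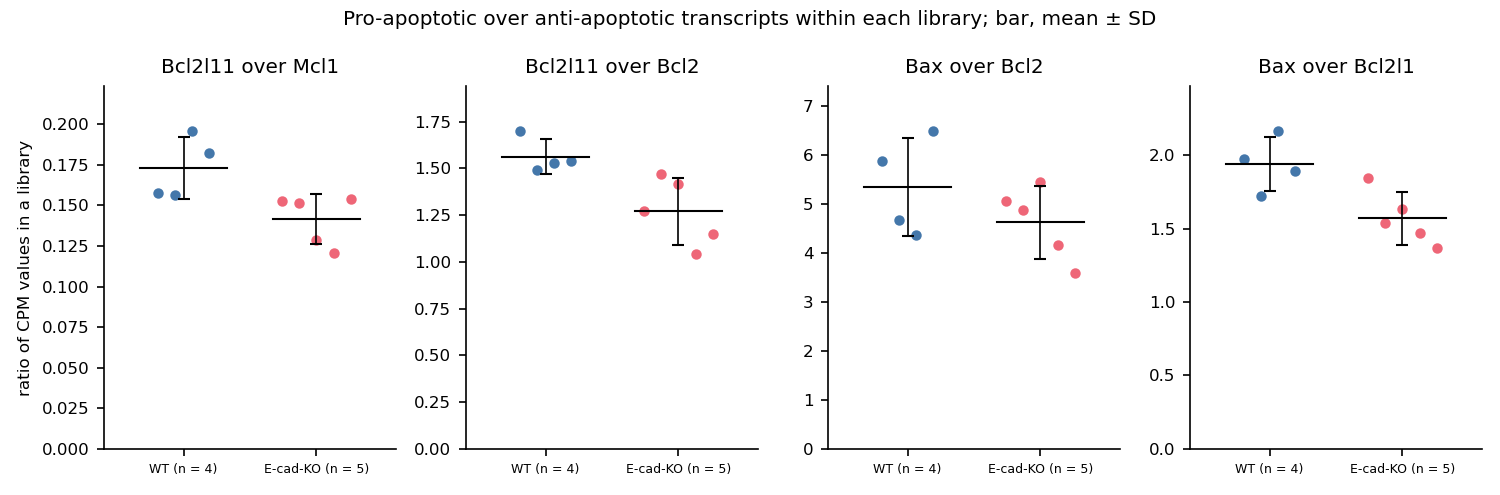
Ratio of the CPM of a pro-apoptotic to an anti-apoptotic gene within each library (vertical axes, from 0), for 4 pairs chosen after the values were seen, with the mean and SD of 4 WT (blue) and 5 E-cad-KO (red) libraries. The groups do not overlap for Bcl2l11 over Mcl1 and Bcl2l11 over Bcl2 and overlap for both Bax ratios.

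Of 15 other genes of the family, 12 were tested, and edgeR called 0 of them, with 2 at an unadjusted p under 0.05, Bok and Bcl2l14, both lower in E-cad-KO. DESeq2 and limma-voom each called 0 as well. Positive differences were found for 5 of 12, with a median of -0.09 on the log2 scale. Bok, a Bax-like effector, averaged 21.5 ± 1.37 CPM (SD, n = 4) for WT libraries and 19.2 ± 1.12 CPM (SD, n = 5) for E-cad-KO libraries, a log2 difference of -0.17 (edgeR adjusted p = 0.267). Bcl2l14 differed by -0.29 (edgeR adjusted p = 0.280) and shares exon bases with a gene on the other strand. Bcl2l15, at a mean of 1.43 CPM for WT and 0.963 CPM for E-cad-KO, differed by -0.57 (edgeR adjusted p = 0.324). Bcl2l2, which encodes the anti-apoptotic Bcl-w, differed by 0.12 (edgeR adjusted p = 0.380) and shares exon bases with a predicted gene on its own strand. Hrk, Bcl2a1d and Bcl2l10 did not pass the filter on low counts. Bcl2a1a and Bcl2a1b stayed under 1 CPM in every library, and reads of these near-identical copies may be split or lost in counting.

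Of 18 genes of the mitochondrial death machinery outside the family, such as cytochrome c, Apaf1 and caspases, edgeR, DESeq2 and limma-voom each called 0. With edgeR 1 was at an unadjusted p under 0.05. The 1 gene was Endog, a mitochondrial nuclease, at 7.95 ± 0.686 CPM (SD, n = 4) for WT libraries and 6.16 ± 1.11 CPM (SD, n = 5) for E-cad-KO libraries, a log2 difference of -0.37 (edgeR adjusted p = 0.233). Endog shares 379 exon bases with Spout1 on the other strand. The difference was -0.19 for Vdac1 and -0.09 for Vdac2, which encode channels of the outer membrane (edgeR adjusted p = 0.327 and 0.448). Over the list, 5 of 18 differences were positive, with a median of -0.03.

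Among 17 transcription factors known to act on members, edgeR called 0, and 4 were at an unadjusted p under 0.05, all higher in E-cad-KO. Nfkb1, a subunit of NF-κB, which drives Bcl2l1 among other genes, averaged 78.1 ± 8.55 CPM (SD, n = 4) for WT libraries and 98.3 ± 5.98 CPM (SD, n = 5) for E-cad-KO libraries, a log2 difference of 0.33 (edgeR adjusted p = 0.0697). It was the 1 factor of the 17 whose groups did not overlap, against 8.11% of all tested genes, so that 1 of 17 is near the background. Trp53, the gene of p53, averaged 66.6 ± 4.16 CPM (SD, n = 4) and 77.1 ± 4.17 CPM (SD, n = 5), a log2 difference of 0.21 (edgeR adjusted p = 0.115). Rela differed by 0.22 (edgeR adjusted p = 0.209) and Jun by 0.20 (edgeR adjusted p = 0.278), the latter with exon bases shared with Junos on the other strand. Over the 17 genes, 12 differences were positive, with a median of 0.09. DESeq2 called 2 of the 17, Nfkb1 and Trp53, and limma-voom 0, against 8.46% and 2.94% of the genes to which each gave an adjusted p. With limma-voom 6 reached an unadjusted p under 0.05, 4 higher and 2 lower in E-cad-KO. Without WT 4 edgeR called 0, and 7 reached that mark, 4 higher and 3 lower, Jun not among them. In that fit 9.44% of all genes reached it in the higher direction. Without both WT 1 and WT 4 it again called 0, and 7 reached the mark, 5 higher and 2 lower.

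Of 14 p53 targets outside the family, edgeR called 0, and 4 were at an unadjusted p under 0.05, all higher in E-cad-KO. These were Phlda3, an inhibitor of Akt (0.31 on the log2 scale, edgeR adjusted p = 0.132), the death receptor gene Tnfrsf10b (0.36, edgeR adjusted p = 0.234), the stress gene Sesn2 (0.26, edgeR adjusted p = 0.256) and the nuclease gene Aen (0.30, edgeR adjusted p = 0.269). Positive differences were found for 13 of 14, with a median of 0.15. Of the 14, 4 were highest of all libraries in WT 4 (Cdkn1a, Mdm2, Ccng1 and Trp53inp1) and 2 were lowest there (Perp and Btg2), a tally made after the values were seen. Cdkn1a stood at 253 CPM there against 117 to 165 CPM in the other 8 libraries, and Mdm2 at 208 CPM against 125 to 187 CPM. The highest WT value lay in WT 4 for 11 of the 14. Among the members it lay in WT 4 for 3 (Bax, Bbc3 and Bcl2l1), in WT 3 for 3, and in WT 1 and WT 2 for 2 each. For Pmaip1 it lay in WT 1, at 19.9 CPM against 19.6 CPM in WT 4. How often the highest WT value lies in WT 4 over all tested genes was not tested. DESeq2 called 1 of the 14 (Phlda3) and limma-voom 1 (Tnfrsf10b), against 8.46% and 2.94% of the genes to which each gave an adjusted p. Without WT 4 edgeR called 2 (Sesn2 and Tnfrsf10b), and 8 of 14 reached an unadjusted p under 0.05, all higher in E-cad-KO. In that fit and direction 9.44% of all genes did. WT 4 held the highest WT value for 11 of the 14, so that leaving it out lowers their WT mean. The 8 of 14 is thus no independent check of the 4 of 14 with all libraries. Without both WT 1 and WT 4, left out together after the data were seen, edgeR also called 2, but others (Cdkn1a and Zmat3). In that fit 8 of 14 reached the unadjusted mark in the higher direction, against 7.67% of all genes. WT 1 and WT 4 were the 2 highest WT libraries for both called genes, so that leaving both out lowers their WT mean.

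Of 16 genes whose products act on family proteins, such as ubiquitin ligases, kinases and chaperones, edgeR called 0, and 3 were at an unadjusted p under 0.05, all higher in E-cad-KO. They were the chaperone genes Hspa1b (0.43, edgeR adjusted p = 0.0880) and Hspa1a (0.41, edgeR adjusted p = 0.0904), near-identical copies whose split of reads is uncertain, and Akt1, a survival kinase (0.18, edgeR adjusted p = 0.238). Positive differences were found for 13 of 16, with a median of 0.06. Hspa1a was the 1 gene of the 16 whose groups did not overlap, against 8.11% of all tested genes, which is near the background. DESeq2 called 2 of the 16, Hspa1a and Hspa1b, and limma-voom 0. These methods called 8.46% and 2.94% of the genes to which each gave an adjusted p.

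The SD of log2 CPM over all libraries ran from 0.10 for Bak1 to 0.26 for Pmaip1, followed by Bmf and Bcl2l1 at 0.24 each. For these 3 genes, the tested genes with a mean of at least 5 CPM whose log2 CPM followed them most closely over the 9 libraries were sought among 11227 genes, as a description. They were Aoc2, Zfp661 and Mrgbp for Pmaip1 (Pearson r of 0.97, 0.86 and 0.85), Psma6, mt-Nd6 and Pgap1 for Bmf (0.96 each), and Slc4a11, Gpr107 and Rassf1 for Bcl2l1 (0.95, 0.94 and 0.94). The points of such a correlation share 9 libraries in 2 groups, and the highest values of a search over so many genes are high by selection.

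No single library was at the extreme for most members. E-cad-KO 4 and E-cad-KO 5 were each the highest library for 3 members, WT 1 for 2, and WT 3 and WT 4 for 1 each. The lowest value was in WT 1 for 3 members and in WT 3 for 2. Within the E-cad-KO group, library 5 was the highest for 6 of 10 members.

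Bnip3 and Bnip3l, mitophagy genes of the wider family and targets of the hypoxia factor Hif1a, varied more between libraries than most members, and are given here because of these values. Bnip3 was at 243, 150, 112 and 24.4 CPM in WT 1 to 4, and at 33.5, 154, 120, 57.6 and 49.9 CPM in E-cad-KO 1 to 5, a 9.99-fold span from the lowest to the highest library. Bnip3l was at 333, 289, 226 and 154 CPM in WT 1 to 4, and at 168, 286, 253, 201 and 201 CPM in E-cad-KO 1 to 5. Both genes were lowest in WT 4 and highest in WT 1, and high in E-cad-KO 2 and 3 relative to E-cad-KO 1.

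The log2 difference of Bnip3 was -0.68 with a 95% interval from -2.12 to 0.77 (edgeR adjusted p = 0.661), which spans 0.229-fold to 1.71-fold. Hif1a was at 204, 189, 154 and 93.7 CPM in WT 1 to 4 and at 123, 132, 155, 115 and 112 CPM in E-cad-KO 1 to 5, and was likewise highest in WT 1 and lowest in WT 4. Its log2 difference was -0.33 (edgeR adjusted p = 0.460). Bnip3 and Hif1a share exon bases with predicted genes on the other strand.

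**Figure D5:**
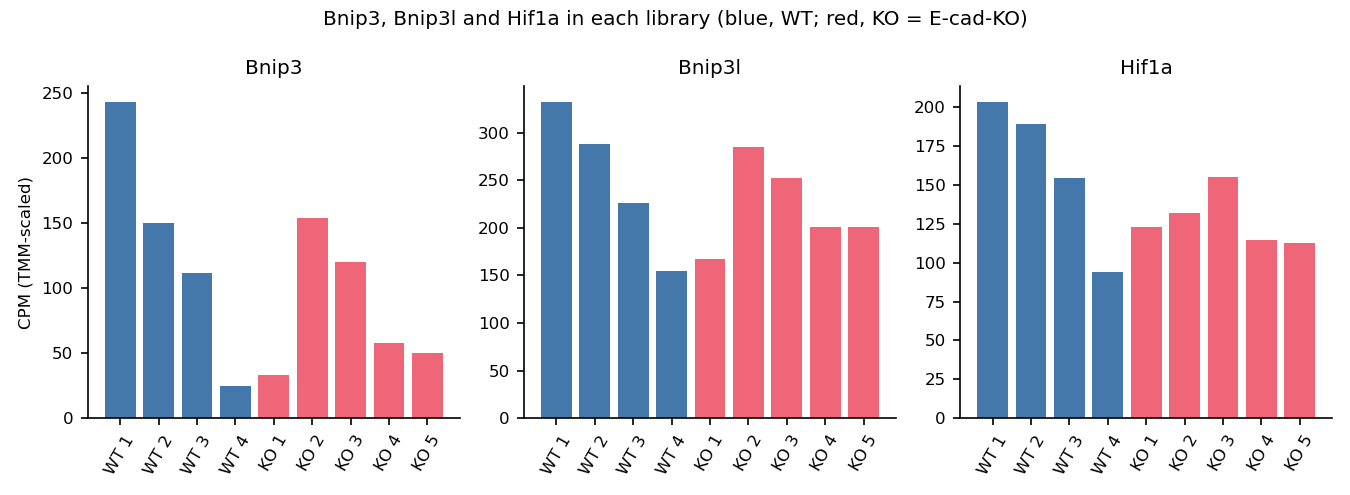
CPM (vertical axes, from 0) of Bnip3, Bnip3l and Hif1a, 1 bar per library, WT in blue and E-cad-KO (KO) in red. Bnip3 runs from 24.4 CPM in WT 4 to 243 CPM in WT 1, and the spread within each group exceeds the difference between the groups.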

How the data were processed

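Poly(A)-selected libraries were made with a stranded kit from RNA of whole collagen gels, per the labels' protocols. The authors deposited raw counts per gene for 9 samples, and per the submitters' processing notes these came from Bowtie2, TopHat2 and HTSeq with the GRCm38 build. Versions, annotation release and strand setting were not given in the sources used here. Genes were matched to symbols by Ensembl identifier, and positions and exon lengths came from GENCODE M21.

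All 17289 genes passing the default filterByExpr filter were fitted with edgeR 4.0.16 in R 4.3.3 (TMM scaling, robust quasi-likelihood F-test, group as the only term, two-sided p, Benjamini-Hochberg adjustment over all tested genes). Genes with an adjusted p below 0.05 count as called. The SE is the size of the log2 fold change divided by the square root of F. The fit was tested on simulated counts. No library pair agreed within sampling noise (smallest chi-square per degree of freedom 14.8), and the labels give no batch.

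The members and lists were chosen with earlier results of these data known. Named with values are all members, Cdh1, of each other list up to 4 genes with the smallest p, and the 3 closest genes of the 3 most variable members; 2 genes under this rule are not reported here. Bnip3, Bnip3l, Hif1a, Cdkn1a, Mdm2, Zmat3, Ccng1, Trp53inp1, Perp, Btg2 and the ratios were chosen after their values were seen. Marker lists covered luminal and myoepithelial cells, macrophages, neutrophils, T cells, B cells, endothelium, fibroblasts and adipocytes. Alternatives were median-of-ratios and upper-quartile scaling, 2 other filters, non-robust dispersion, each library left out in turn, a block for the replicate number, DESeq2 1.42.0, limma-voom with quality weights (limma 3.58.1) and, added after seeing the data, WT 1 and WT 4 left out together.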

Additional observations from a re-analysis of the deposited data

Results flagged for a closer look

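The level of Cdh1 in E-cad-KO 2, 118 CPM, lay far from the other 4 E-cad-KO libraries, which ran from 79.0 to 87.3 CPM, and still below every WT library. It was the 1 value singled out by Dixon's test for a lone sample among 68 sets examined (34 genes in 2 groups), where chance alone singles out about 1 set in 20. None of the 10 members had such a library. E-cad-KO 2 was not the highest or lowest of the 9 libraries for any of the 10 members.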

How the results depend on the processing

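The log2 difference of 8 of 10 members, all but Bax and Pmaip1, kept its sign in all 18 alternatives, as did that of the 24 other genes examined in this way. Bax, at 0.017, gave -0.019 with upper-quartile scaling and -0.032 to 0.13 with 1 library left out. Pmaip1, at -0.013, gave 0.17 with limma-voom, 0.37 without WT 1 and WT 4, and -0.12 to 0.11 with 1 library left out. Members called numbered 0 with edgeR, 2 with DESeq2, 1 with limma-voom and 0 to 1 with 1 library left out, the 1 being Bcl2l1 without WT 4. Without both WT 1 and WT 4 there were 0.

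The number of all genes called moved far more: 244 with the fit as reported, 1206 with DESeq2, 509 with limma-voom and 79 without WT 1 and WT 4. With 1 library left out it ran from 9 to 334: leaving out WT 1 to 4 in turn gave 122, 105, 9 and 334, and leaving out E-cad-KO 1 to 5 gave 29, 54, 28, 26 and 47. The cause was not tested. With the replicate number as a replicate block, 0 genes and 0 members were called. The numbers share only a number: deviations of same-numbered libraries correlated at -0.324, 0.235, -0.0303 and 0.284, and only number 2 correlated best with its own. Counts per gene do not separate splice forms. Depth limits Hrk, Bcl2a1a, Bcl2a1b, Bcl2a1d and Bcl2l10, which were under 1 CPM in every library.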
